A study of Mus musculus with 8 samples.

Results

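Mouse mammary tumour cells with less Snd1 were compared with vector-carrying cells, both under camptothecin, on 6 of the 8 arrays of the series. The 3 knockdown arrays and the 3 empty-vector arrays were taken from the labels, and the other arrays, of Mtdh knockout lines with Mtdh put back, were not used here. All 6 came from 1 tumour line (WTA) of FVB mice carrying the polyoma middle T (PyMT) transgene and wild type for Mtdh. Both groups had been infected with a lentivirus, LKO1-shSnd1 (a hairpin against Snd1) or LKO1 without an insert, selected with puromycin and kept in 50 uM camptothecin for 36 h before RNA was taken. The control was an empty vector and not a scrambled hairpin, and no cells without the drug were analysed here. Each sample carried Cy5 and shared its array with a Cy3 reference, a commercial pool of RNA from 11 cell lines of mouse, so a level is given as a log2 ratio of sample to reference, and a log2 fold change is the knockdown mean minus the vector mean. An error given after ± is the moderated standard error of that difference, with n = 3 and 3. Its variance is drawn partly from all features tested.

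Snd1 is a protein with nuclease-like domains and a Tudor domain that takes part in transcription, splicing and the decay of RNA, and with its partner Mtdh it supports mammary tumour cells under stress. Camptothecin traps topoisomerase I on DNA, which blocks transcription of long genes and breaks replication forks. The best known responses to it (p53 targets, the cell cycle, interferon genes) are left aside below in favour of other functions and gene families. They were left aside as lists, so genes named below under other functions may also belong to these responses.

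Median Cy5 signals of the 6 arrays lay between 158 and 306, against median backgrounds of 61 to 71, and 78.02% to 88.47% of spots were well above background. Replicate arrays correlated at 0.978 to 0.992 across probes, and knockdown with vector arrays at 0.854 to 0.874. Replicate 1 of each group shared a slide and the other 4 arrays a second slide. Whether replicates were separate cultures is not in the labels, so p-values reflect array-to-array spread alone, and that spread may be technical. The main fit had no block for the slide, so this spread includes any offset between the slides. The number of arrays limits the precision. In bulk RNA, fewer cells of a type and less RNA per cell cannot be told apart.

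Snd1 itself had log2 ratios of -3.23, -3.33 and -3.44 with the hairpin, against -2.49, -2.40 and -2.43 with the empty vector. The groups did not overlap, and Snd1 was 1.86-fold lower (log2 fold change -0.90 ± 0.06, adjusted p = 1.04e-05). Far more than the target differed: of 17237 named genes tested, 4467 (25.9%) were called higher and 4402 (25.5%) lower at an adjusted p under 0.05, and 497 (2.88%) and 344 (2.0%) were called and differed by at least 2-fold. Over all 25688 features tested, 6073 (23.6%) were higher and 5413 (21.1%) lower, 2.29% and 1.52% of features by at least 2-fold, with a median log2 fold change of 0.0231 (0.0151 over named genes). After centring each array on its median in place of loess, 4822 were higher and 6186 lower. With the slide as a block the counts were 7263 and 6077, and within the second slide alone 6735 and 5820. Values of the groups did not overlap for 60.1% of named genes. A gene family is therefore read below against these shares, since 51.5% of named genes were called in either direction.

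**Figure D1:**
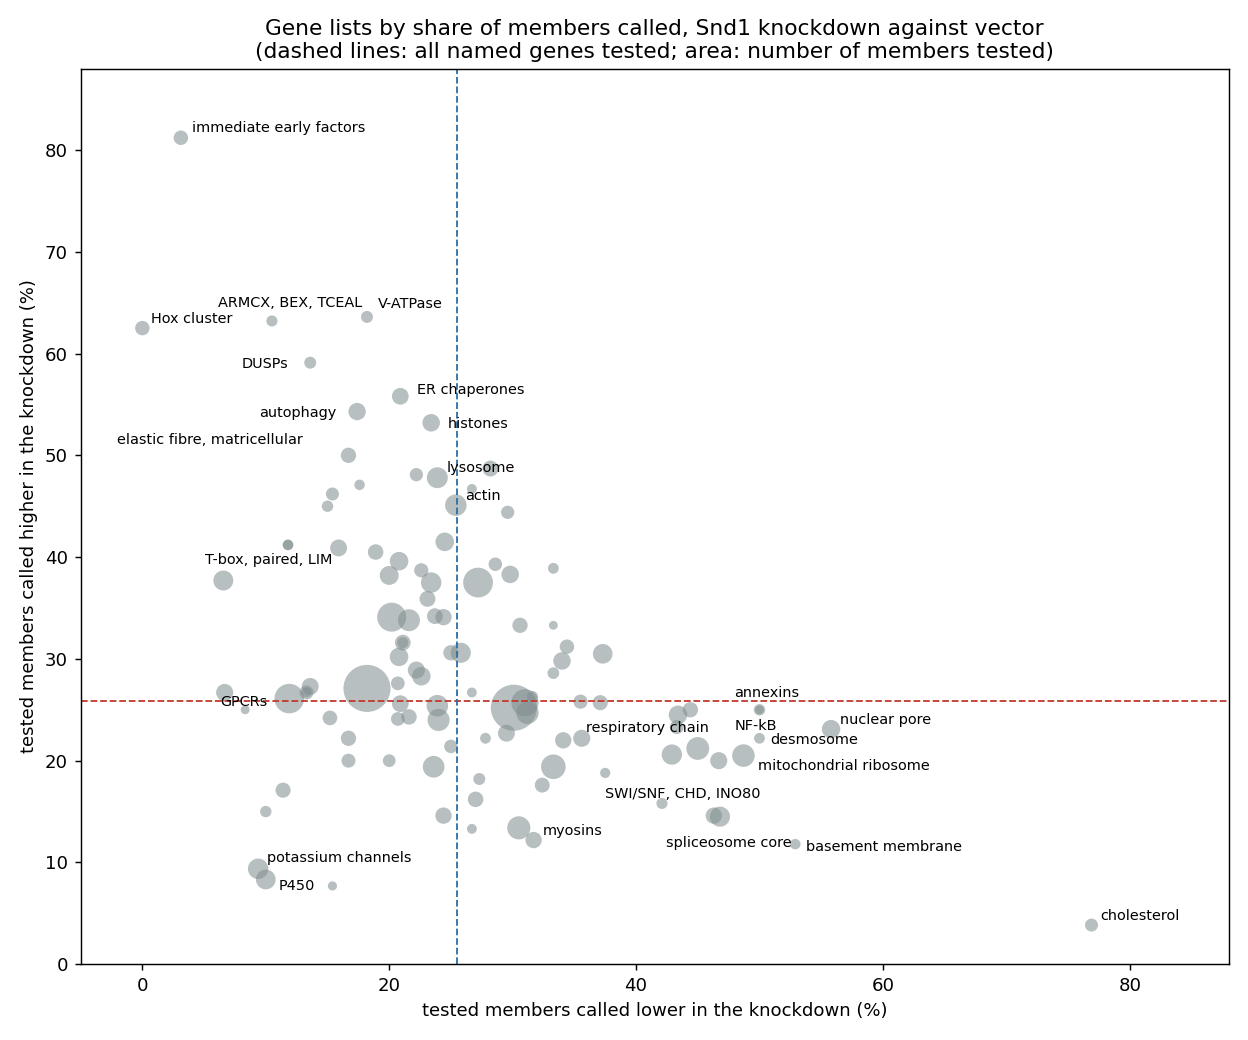
Each point is a gene list with at least 10 tested members. The vertical axis gives the percentage of its members called higher and the horizontal axis the percentage called lower, the area grows with the number of members tested, and the dashed lines mark the shares over all named genes (25.9% and 25.5%). Immediate early factors, Hox genes, ARMCX and related genes and V-ATPase subunits lie at the upper left, and cholesterol, nuclear pore and basement membrane genes at the right.

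The 25 largest increases outside the p53, cell cycle and interferon lists included genes of several functions. Fkbp10, a collagen chaperone of the endoplasmic reticulum, stood at -0.63, -0.86 and -0.99 in the knockdown and -4.56, -4.84 and -4.85 in the vector arrays, a rise of 3.92 ± 0.11 on the log2 scale (adjusted p = 1.17e-07). Ptges, which makes prostaglandin E2, rose by 3.51 ± 0.05, Cgref1, a secreted calcium-binding protein, by 3.39 ± 0.06, and Rnase4, a secreted ribonuclease, by 3.37 ± 0.07 (2.73 by another probe). Mical1, an oxidase that disassembles actin filaments, rose by 3.58 ± 0.06, and the calcium channel protein Calhm2 by 3.63 ± 0.09, with 2 of 3 vector arrays well above background. Tmem37 was the largest increase at 5.55 ± 0.04 by 1 probe and 1.98 by another. For each of these genes the lowest knockdown value lay above the highest vector value.

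The 25 largest decreases were smaller. Plekhs1, a pleckstrin-homology protein, stood at 1.95, 2.03 and 2.03 in the knockdown against 4.38, 4.35 and 4.33 in the vector arrays (-2.35 ± 0.05, or -1.39 by another probe). Selenop, the secreted selenium carrier, fell by 2.16 ± 0.05 on the log2 scale, Itm2a, a membrane protein, by 2.19 ± 0.04, Palmd (palmdelphin) by 2.27 ± 0.07 and Ccdc68, a centriole protein, by 2.22 ± 0.08. The receptor tyrosine phosphatase Ptprf fell by 2.12 ± 0.05 (-0.89 by another probe), and the sialyltransferase St6galnac2 by 2.07 ± 0.08 (-0.31 by another probe). Elf5, a transcription factor of the mammary alveolar lineage, stood at 0.49, 0.60 and 0.50 in the knockdown and 2.31, 2.70 and 2.66 in the vector arrays (-2.03 ± 0.10). Phyhd1, Pdgfrl, Rassf4, Rab19 and Gvin1 also fell, by 2.05, 2.03, 1.95, 1.89 and 1.87 on the log2 scale. Gvin1 is a large interferon-inducible GTPase that the interferon list did not hold. Other probes gave -0.91 for Rassf4 and -0.80 for Gvin1.

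Hox genes lie in 4 clusters and encode homeodomain factors that set position along the body axis. Of 32 tested, 20 rose, 16 of them by at least 2-fold, none fell, and the median log2 fold change was 0.91. For 21 of the 32 the groups did not overlap, beside 60.1% of all named genes. Hoxb7 stood at 1.20, 1.30 and 1.18 with the hairpin against -3.02, -3.27 and -2.96 with the vector, a 19.9-fold rise (4.31 ± 0.08, adjusted p = 2.47e-08). Within the first slide the difference was 4.22, and within the second slide 4.36. Hoxa7 stood at 0.97, 0.72 and 0.74 against -3.24, -3.55 and -3.48 (4.23 ± 0.10), and Hoxc9 rose by 3.76 ± 0.08.

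All 8 tested genes from Hoxb9 to Hoxb2 rose, from 0.74 ± 0.08 for Hoxb5 to the value of Hoxb7, with Hoxb6 at 3.02 ± 0.05 and Hoxb2 at 3.51 ± 0.09. In the A cluster Hoxa5 (1.90 ± 0.05) and Hoxa9 (1.75 ± 0.18) rose as well. In the D cluster Hoxd8 (2.11 ± 0.08), Hoxd4 (1.67 ± 0.10) and Hoxd9 (1.38 ± 0.07) rose. The 12 Hox genes that did not pass the test lay between -0.03 and 0.39. Hoxc8 was well above background on the 3 knockdown arrays and not well above background on any vector array, so it passed the filter on signal only through the knockdown group and its call, 1 of the 20, supports nothing. Hoxb8, Hoxd4 and Hoxd8 were well above background on 1 of 3 vector arrays each. Hoxa9, Hoxb2 and Hoxb3 were so on 2 of 3. Hoxb3 (1.79 ± 0.25) had the largest error, with vector values of -0.71, -1.32 and -1.83.

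Other developmental regulators were counted in lists of their own. Of 61 T-box, paired and LIM homeobox factors 23 rose and 4 fell, with a median of 0.11. Dlx2, a homeobox factor of the limbs and forebrain, stood at 0.96, 1.01 and 0.96 in the knockdown and -3.20, -2.86 and -2.69 in the vector arrays (3.89 ± 0.12). Tbx3, a T-box factor needed for mammary buds, rose by 3.82 ± 0.08. Tbx18 and Prrx1, factors of mesenchyme, rose by 2.10 ± 0.06 and 2.02 ± 0.07 (1.16 for Tbx18 and 1.26 to 1.43 for Prrx1 by other probes), with 1 of 3 vector arrays well above background for Tbx18. Pbx3, a Hox partner, fell by 0.41 on the log2 scale. Fox factors were split (9 higher and 8 lower of 37), and the larger direction turned in 5 of 22 alternatives, though Foxc2 (2.09 ± 0.06) rose. Sox11 fell by 2.66 ± 0.06, or by 1.89 and 0.22 with other probes. Sox factors gave 4 higher and 2 lower of 15, a larger direction that turned with median centring, and nuclear receptors 12 higher and 6 lower of 44. The orphan receptors Nr2f1 (-1.08 ± 0.06) and Nr2f2 (-1.02 ± 0.05), which act in organ patterning, fell, and Esrra, a regulator of mitochondrial genes, rose by 1.39 ± 0.04.

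The ARMCX, GPRASP, BEX and TCEAL genes form a mammalian group on the X chromosome whose products act at mitochondria and in receptor sorting. Of 19 tested, 12 rose, 6 of them by at least 2-fold, and 2 fell (median 0.38). The list also held Arxes1 (0.38) and Arxes2 (1.05), which are outside these families and are counted among the rises. Armcx1 stood at 0.61, 0.64 and 0.62 in the knockdown and -3.56, -3.78 and -3.78 in the vector arrays, a 20.2-fold rise (4.33 ± 0.07). Armcx2 (3.24 ± 0.06), Armcx4 (2.92 ± 0.08, or 2.03 by another probe) and Tceal8 (1.17 ± 0.04) rose, and Bhlhb9 fell by 1.02 ± 0.05. The 5 that did not pass the test lay between -0.14 and 0.08. On the X chromosome as a whole 21.3% of genes were higher and 27.7% lower.

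Imprinted genes, read from 1 parental copy, gave 12 higher and 4 lower of 26 (median 0.13). Peg12 rose by 2.28 ± 0.06, Sgce by 1.45 ± 0.04 and Ndn (necdin) by 1.18 ± 0.05, and Plagl1, a zinc-finger factor, by 1.95 ± 0.04 with 1 probe and 0.29 with another. Mest and Snrpn fell by 1.03 ± 0.07 and 0.98 ± 0.08. Clock genes gave 9 higher and 3 lower of 20: the repressors Ciart (1.03 ± 0.08), Nr1d1 (1.01 ± 0.05, or 0.17 to 0.21 by other probes) and Per1 (0.93 ± 0.04) and the factor Dbp (0.74 ± 0.07) rose, and the activator Clock fell by 0.49 ± 0.06.

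Lysosomes digest material delivered by endocytosis and autophagy, are acidified by the V-ATPase pump, and many of their genes carry the letters CACGTG near the start site. Of 22 V-ATPase subunits and accessory proteins 14 rose and 4 fell (median 0.28), of 46 autophagy genes 25 rose and 8 fell (median 0.29), and of 67 lysosomal enzymes and membrane proteins 32 rose and 16 fell (median 0.12). No V-ATPase gene moved by as much as 2-fold. Atp6v1c1 stood at 1.03, 1.24 and 1.17 in the knockdown and 0.41, 0.45 and 0.46 in the vector arrays (0.71 ± 0.06), and Atp6v0b (0.67 ± 0.09), Atp6v1d (0.61) and Atp6v1h (0.60) were close to it. Those that fell included Atp6v1c2 (-0.71 ± 0.06) and Atp6v0a4 (-0.25), isoforms found mainly in specialised epithelia. Among autophagy genes the cargo receptor Sqstm1 (p62; 0.87 ± 0.06), the LC3 genes Map1lc3a (0.84 ± 0.04) and Map1lc3b (0.67 ± 0.05) and the mitophagy kinase Pink1 (0.74 ± 0.05) rose, and the kinase Ulk2 fell by 0.41 ± 0.05. None of the 46 moved by as much as 2-fold.

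A few lysosomal enzymes rose far more than the rest. The protease Ctsk (cathepsin K, which degrades collagen) stood at 2.94, 3.13 and 2.92 in the knockdown against -0.57, -0.55 and -0.52 in the vector arrays (3.54 ± 0.06), with 2 of 3 vector arrays well above background. Hexa, a subunit of hexosaminidase, stood at 0.30, 0.21 and 0.15 against -3.06, -3.12 and -3.18 (3.34 ± 0.06). The dipeptidase Dpp7 rose by 3.95 ± 0.08 with 1 probe and 1.06 with another, and the phospholipase Pla2g15 by 1.63 ± 0.06. The phosphatase Acp5 (-0.92 ± 0.06), the glucuronidase Gusb (-0.62 ± 0.05), the ganglioside activator Gm2a (-0.61 ± 0.06) and cathepsin O (Ctso; -0.59 ± 0.05) fell.

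The promoters below are shown because members of these lists rose more often than they fell and these windows share a hexamer. They are RefSeq stretches (GRCm38.p6) of up to 25 bases on each side of CACGTG, in capitals, upstream of the start site of genes that rose (Dpp7, Ctsa, Mcoln1, Gla, Atp6v1a and Atg3, a lysosomal dipeptidase, protective protein, calcium channel, galactosidase, pump subunit and autophagy enzyme) or fell (Sgsh and Lgmn, a sulfamidase and a protease).
Dpp7, chr2:25356375-25356430, minus strand: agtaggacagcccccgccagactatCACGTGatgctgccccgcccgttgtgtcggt
Ctsa, chr2:164833736-164833772, plus strand: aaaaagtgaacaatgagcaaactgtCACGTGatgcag
Mcoln1, chr8:3500449-3500504, plus strand: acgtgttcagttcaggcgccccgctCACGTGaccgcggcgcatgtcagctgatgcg
Gla, chrX:134601169-134601224, minus strand: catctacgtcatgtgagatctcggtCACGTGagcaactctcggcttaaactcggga
Atp6v1a, chr16:44139360-44139415, minus strand: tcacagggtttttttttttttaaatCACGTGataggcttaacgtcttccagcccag
Atg3, chr16:45158733-45158788, plus strand: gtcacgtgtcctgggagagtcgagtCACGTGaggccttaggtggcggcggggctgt
Sgsh, chr11:119355511-119355564, minus strand: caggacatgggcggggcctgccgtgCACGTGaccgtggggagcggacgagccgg
Lgmn, chr12:102439111-102439166, minus strand: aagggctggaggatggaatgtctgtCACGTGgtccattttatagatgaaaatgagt
In windows from 250 bases before to 50 after the start site, CACGTG (its own reverse complement) was found for 10 of 26 lysosomal genes that rose and had a window, for 2 of 11 that fell, and for 17 of 54 tested. The counts were 4 of 9 V-ATPase genes that rose and 0 of 4 that fell, and 4 of 19 autophagy genes that rose and 0 of 7 that fell. Of 13729 tested genes with a window 10.3% held it, and of all 32851 windows 7.15%. A longer lysosomal palindrome with CACGTG at its centre was searched in the same windows. It was found for 1 of 54 lysosomal, 0 of 17 V-ATPase and 0 of 38 autophagy genes tested. Among all tested genes with a window its share was 0.6%, so the counts above rest on the shorter letters alone. Ctsa (1.00), Gla (0.65), Mcoln1 (0.58), Atp6v1a (0.54) and Atg3 (0.32) rose by the log2 fold changes given, and Sgsh and Lgmn fell by 0.42 and 0.37. The letters describe these windows and nothing about which factor was bound.

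Of 43 chaperones and disulfide isomerases of the endoplasmic reticulum 24 rose and 9 fell (median 0.23), led by the co-chaperone Dnajb9 (1.63 ± 0.04), the stress factor Xbp1 (1.03 ± 0.05), Herpud1 (0.88 ± 0.05) and the chaperone Hspa5 (BiP; 0.84 ± 0.05). Uggt1, which rechecks folded glycoproteins, fell by 0.59 ± 0.06. Of 74 cytosolic heat shock and DNAJ genes 25 rose and 16 fell, a larger direction that turned with median centring. The small heat shock protein Hspb8, partner of selective autophagy, stood at 1.42, 1.29 and 1.37 in the knockdown and -0.99, -1.13 and -1.03 in the vector arrays (2.41 ± 0.06), and Hspb1 rose by 1.85 ± 0.05. Of 37 proteasome subunits 15 rose and 7 fell (median 0.04), with the ubiquitin receptor Adrm1 at 0.86 ± 0.04 and the small subunit Sem1 at -0.61 ± 0.05. Of 113 glycosylation enzymes 29 rose and 35 fell, close to the share over all named genes.

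Of 36 elastic fibre and matricellular proteins of the extracellular matrix 18 rose and 6 fell (median 0.22). Postn (periostin) stood at 0.85, 0.90 and 0.87 in the knockdown and -1.82, -1.87 and -1.85 in the vector arrays (2.72 ± 0.04). Emilin2 (2.58 ± 0.07), Thbs2 (1.59 ± 0.04) and Fbln2 (1.27 ± 0.06) rose, and Ccn5, a growth-restraining matricellular protein, fell by 2.41 ± 0.08. The calcification inhibitor Mgp, in none of the matrix lists, stood at -3.23, -3.31 and -3.40 against -1.53, -1.19 and -1.28 (-1.98 ± 0.09). Of 39 collagens 14 rose and 9 fell (median 0.09): Col5a2 rose by 1.68 ± 0.08, and Col1a1 (2.39 ± 0.07, or 0.72 and 0.20 by other probes) and Col6a3 (1.87 ± 0.05, or -0.02 by another probe) rose in a probe-dependent way. Col11a1 fell by 1.12 ± 0.06 (-0.09 by another probe). Col1a1 stood at -4.06 to -4.33 in the knockdown, below the reference RNA in every array. That ratio to the pool is not a measure of abundance, and its mean log2 Cy5 signal in the knockdown was 11.81.

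Basement membrane genes went the other way, with 2 higher and 9 lower of 17 (median -0.26). Agrn (agrin), a heparan sulfate proteoglycan, stood at 0.24, 0.21 and 0.15 in the knockdown and 1.84, 1.84 and 1.86 in the vector arrays (-1.65 ± 0.04, or -0.42 by another probe). The integrin ligand Npnt (-1.04 ± 0.09, or -0.39 by another probe) and the laminin chain Lama5 (-0.75 ± 0.05) fell. Nid1 (nidogen), which links laminin to collagen IV, was the exception, at -2.00, -2.00 and -2.02 against -4.88, -5.18 and -5.10 (3.05 ± 0.08). Of 21 integrins 6 rose and 7 fell. Itgb7 rose by 2.96 ± 0.05, and Itgb6 (-1.16 ± 0.06) and Itga8 (-1.45 ± 0.08) fell, while other probes gave -0.12 and -0.24.

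Matrix proteases and their inhibitors were split gene by gene. Of 19 matrix metalloproteinases 5 rose and 6 fell. Mmp14, a membrane-anchored collagenase that activates pro-Mmp2, stood at -0.71, -0.84 and -0.94 in the knockdown and -5.17, -5.30 and -5.35 in the vector arrays (4.45 ± 0.07, or 1.23 by another probe), and Mmp2, a gelatinase, rose by 1.86 ± 0.09. Mmp13, another collagenase, stood at 2.25, 2.58 and 2.67 against 4.33, 4.32 and 4.29 (-1.81 ± 0.10), and the stromelysin Mmp3 fell by 0.92 ± 0.05. The inhibitors parted in the same arrays. Timp1 rose to 2.22, 2.26 and 2.35 from -1.67, -1.59 and -1.72 (3.94 ± 0.06, or 3.13 by another probe), while Timp2 fell to -2.91, -2.83 and -2.88 from -1.04, -0.69 and -0.73 (-2.05 ± 0.09) and Timp3 fell by 1.88 ± 0.05. The cysteine protease inhibitors Cst3 (1.37 ± 0.07) and Cstb (0.99 ± 0.04) rose and the stefin Stfa1 fell by 1.01 ± 0.14. Adam8, a metalloprotease of invading cells, fell by 2.06 ± 0.05, and Serpinf1, an inhibitor of vessel growth, rose by 2.59 ± 0.04 (0.95 by another probe). Proteoglycan and hyaluronan genes gave 7 higher and 6 lower of 29, a larger direction that turned with median centring, and included Cspg4 (3.28 ± 0.10, or 1.62 by another probe), Hyal1, which degrades hyaluronan (2.54 ± 0.07), and Bgn (biglycan; 2.02 ± 0.11).

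**Figure D2:**
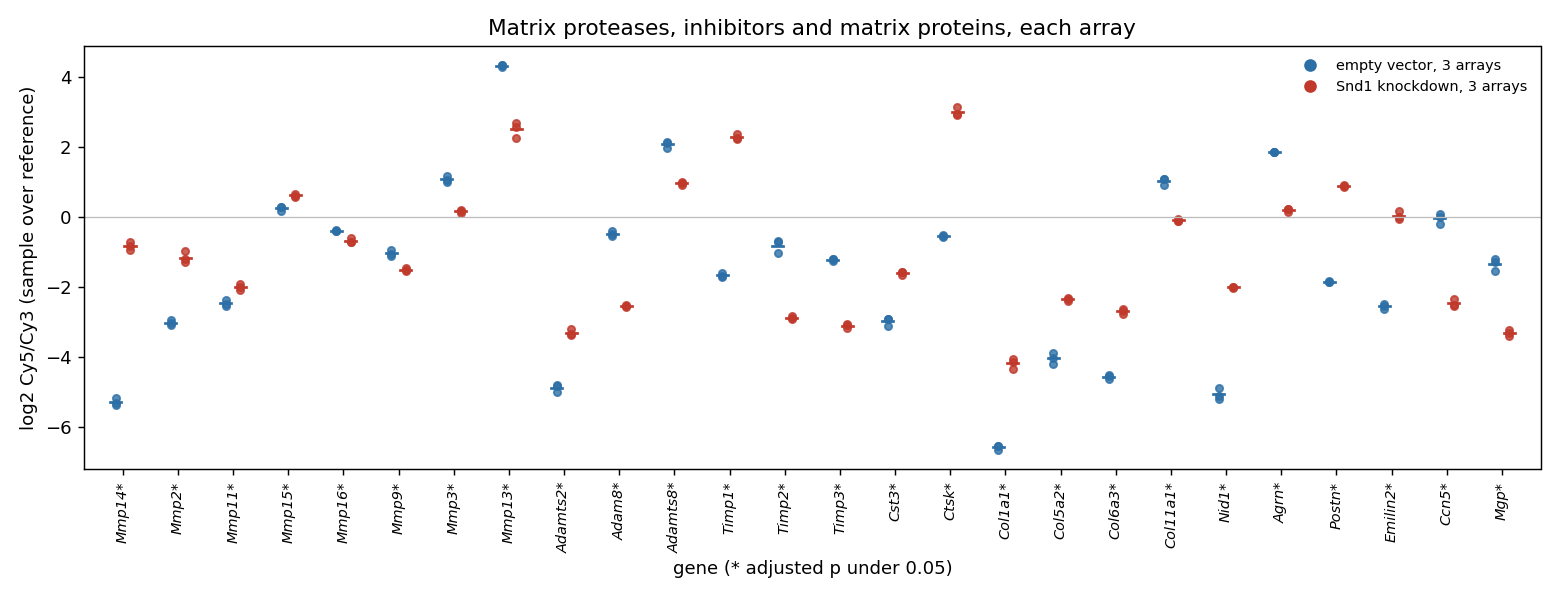
Each pair of columns is 1 gene of matrix proteases, inhibitors and matrix proteins, with the log2 ratio of every array (points) and the group mean (bar). Timp1 is higher and Timp2 and Timp3 are lower in all 3 knockdown arrays, and Mmp14 is higher and Mmp13 lower.

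Markers of other cell types were read from the same arrays. Of 10 tested fibroblast markers 7 rose and none fell, and their mean log2 ratio lay between -3.01 and -2.93 in the knockdown and between -3.98 and -3.94 in the vector arrays. Pdgfrb (2.44 ± 0.05) and Postn rose most, whereas Dcn stood at 0.02 ± 0.06, Lum at 0.10 ± 0.08 and Thy1 at 0.20 ± 0.07, none of them past the test, and Fap was not tested. Mammary epithelial markers gave 2 higher and 7 lower of 11, with means of 1.67 to 1.74 in the knockdown and 2.00 to 2.12 in the vector arrays. Elf5 (-2.03), Krt8 (-0.86) and Epcam (-0.73) were among those that fell, and Krt19 (0.89) and Cldn4 (0.34) rose. All 11 were well above background on the 6 arrays. Leukocyte markers averaged -1.83 to -1.78 and -1.80 to -1.73, and Ptprc, which defines leukocytes, stood at -5.76 to -6.06 and -5.95 to -6.20. Endothelial markers averaged 0.47 to 0.62 and 0.52 to 0.60, adipocyte markers 0.59 to 0.62 and 0.39 to 0.46, and myoepithelial markers -0.01 to 0.08 and 0.32 to 0.34. Of 7 leukocyte markers 1 rose and 2 fell, and of 5 endothelial markers 1 rose and 2 fell. Of 5 adipocyte markers 2 rose and none fell, and of 5 myoepithelial markers 1 rose and 2 fell. The mean log2 ratios are relative to the reference pool and do not rank the lists by abundance. Mean log2 Cy5 signals in the knockdown ran from 7.26 to 12.63 over fibroblast markers and from 6.94 to 16.85 over epithelial markers. The part of other cells in the matrix and Hox results was not tested.

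Of 18 desmosome and hemidesmosome genes 4 rose and 9 fell (median -0.13), and of 34 claudin and tight junction genes 6 rose and 11 fell. Pkp2 (plakophilin 2) stood at -0.52, -0.48 and -0.51 in the knockdown and 0.54, 0.50 and 0.46 in the vector arrays. It fell by 1.00 ± 0.04 on the log2 scale, and the tight junction scaffold Tjp3 by 1.12 ± 0.04. Jam3 and Jam2, junction proteins also found in other tissues, rose by 0.84 ± 0.06 and 1.66 ± 0.05 (0.11 for Jam2 by another probe). Cadherins gave 3 higher (6 with the replicate number as a block) and 2 lower of 20, and tetraspanins, membrane organisers, 8 higher and 6 lower of 29, a larger direction that turned with median centring. Keratins gave 8 higher and 6 lower of 36, which turned in the Cy5 channel alone: Krt8 (-0.86 ± 0.05) and Krt14 (-1.15 ± 0.07) fell, and Krt16 (1.51 ± 0.17) and Krt20 (1.42 ± 0.06) rose. Of 7 galectins, sugar-binding proteins, 4 fell and none rose, with Lgals9 at -0.78 ± 0.06. Of 12 annexins, which bind membranes in the presence of calcium, 3 rose and 6 fell, with Anxa4 at -0.88 ± 0.05, Anxa1 at -0.80 ± 0.04 and Anxa8 at 1.02 ± 0.06. The splicing factor Esrp1, specific to epithelia, stood at 1.20, 1.60 and 1.65 against 2.75, 2.91 and 2.87 (-1.36 ± 0.11).

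In the Ly6 family of small membrane-anchored proteins the falls lay in 1 stretch of chromosome 15, where the 6 tested neighbours from Ly6e to Ly6f all fell, with a median of -1.64. Ly6a (Sca-1), a marker of mammary progenitors, stood at -1.18, -1.35 and -1.34 in the knockdown and 0.81, 1.00 and 0.87 in the vector arrays (-2.18 ± 0.07). Ly6c2 (-2.43 ± 0.08), Ly6c1 (-1.94 ± 0.05) and Ly6f (-1.33 ± 0.13) fell with it. These genes are close copies, so probes may not separate them. Elsewhere in the family Lynx1 (0.67), Plaur (0.52), Ly6m (0.39) and Lypd3 (0.36) rose.

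Of 71 actin and actin-binding genes 32 rose and 18 fell (median 0.14). The LIM protein Pdlim1 stood at 0.78, 0.63 and 0.60 in the knockdown and -2.57, -2.61 and -2.58 in the vector arrays (3.26 ± 0.06), and Tpm2, a tropomyosin, rose by 2.81 ± 0.13 and the crosslinker Flnc by 1.97 ± 0.06 (1.23 and 0.40 by other probes). The Arp2/3 subunit Actr2 fell by 0.61 ± 0.04. Of 41 myosins 5 rose and 13 fell (median -0.05), with Myo6, a motor of endocytosis, at -1.01. Myo5c and Myh14 both fell by 1.15, and gave 0.04 and -0.11 by other probes.

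Mitochondrial gene lists leaned down by small amounts. Of 78 mitochondrial ribosomal proteins 16 rose and 38 fell (median -0.14), and of 80 respiratory chain and ATP synthase genes 17 rose and 36 fell (median -0.09). Mrps15 stood at -0.74, -0.60 and -0.71 in the knockdown and 0.32, 0.36 and 0.31 in the vector arrays (-1.01 ± 0.05), the single member of both lists lower by 2-fold. Ndufa9 of complex I (-0.80 ± 0.04), Cox7a1 of complex IV (-0.93 ± 0.07) and Atp5h of the ATP synthase (-0.77 ± 0.04) fell, and Mrps18b rose by 0.60 ± 0.05. Of 45 genes of fatty acid oxidation and peroxisomes 9 rose and 21 fell, including the peroxisomal enzymes Acox2 (-1.26 ± 0.06) and Acaa1a (-1.30 ± 0.06, or -0.63 by another probe). Cpt1a, the mitochondrial gate of fatty acid oxidation, rose by 0.65 ± 0.05.

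Single enzymes of fuel choice and lipid handling moved further than their lists. Pdk4, which switches off pyruvate dehydrogenase, stood at 1.23, 1.55 and 1.46 in the knockdown and -1.36, -1.53 and -1.20 in the vector arrays (2.78 ± 0.10). Pfkfb4, which sets a regulator of glycolysis, rose by 1.97 ± 0.06, and Lpin1, a phosphatidate phosphatase, by 2.07 ± 0.04. Of 28 glycolysis genes 11 rose and 8 fell, a larger direction that turned with median centring and in the Cy5 channel alone. The cholesterol exporter Abcg1 rose by 2.43 ± 0.05, and 20 of 26 genes of cholesterol synthesis and uptake fell with 1 rise (median -0.46), Idi1 among them (-1.38 ± 0.06). The desaturase Scd2 (-1.43 ± 0.07) and the elongase Elovl6 (-0.90 ± 0.04) fell.

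Redox genes contained large changes in both directions. Of 41 glutathione genes 14 rose, 9 of them by at least 2-fold, and 10 fell. Gpx7, a peroxidase of the endoplasmic reticulum (2.19 ± 0.13, 1 of 3 vector arrays well above background), the secreted peroxidase Gpx3 (1.81 ± 0.06) and Gstm2 (1.54 ± 0.05) rose. Gsta4, which clears lipid aldehydes, stood at -1.31, -1.44 and -1.45 in the knockdown and 0.64, 0.77 and 0.73 in the vector arrays (-2.11 ± 0.06), and Mgst1 fell by 1.37 ± 0.07. Chac1, which degrades glutathione and is induced when amino acids are short, stood at 1.82, 1.85 and 1.91 against -0.37, -0.33 and -0.32 (2.20 ± 0.04). Thioredoxin, peroxiredoxin and related genes gave 13 higher and 6 lower of 27 (median 0.17), among them Srxn1, which repairs peroxiredoxins (2.06 ± 0.04), Hmox1 (heme oxygenase; 1.42 ± 0.05) and the ferritin chain Fth1 (1.17 ± 0.11). The carbonyl reductase Cbr3 stood at 1.31, 1.40 and 1.34 against -2.53, -2.43 and -2.36 (3.79 ± 0.06). Of 31 amino acid response genes and tRNA synthetases 12 rose and 7 fell, a larger direction that turned with median centring, with the stress factor Ddit3 at 1.37 and the synthetase Lars at -0.66.

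The Chac1 promoter is shown because it carries the amino acid response letters TGATGNAAN, here in capitals on the opposite strand, and Chac1 had the largest rise in that list.
Chac1, chr2:119351023-119351081, plus strand: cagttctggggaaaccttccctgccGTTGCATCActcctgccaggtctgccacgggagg
These letters, searched on both strands, were found for 10 of 25 tested genes of the list with a window, 3 of 9 that rose and 2 of 6 that fell, against 3.35% of tested genes and 3.95% of all windows. The antioxidant letters TGACNNNGC were found for 4 of 24 thioredoxin-related and 7 of 36 glutathione genes, against 15.9% of tested genes, close to that share.

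**Figure D3:**
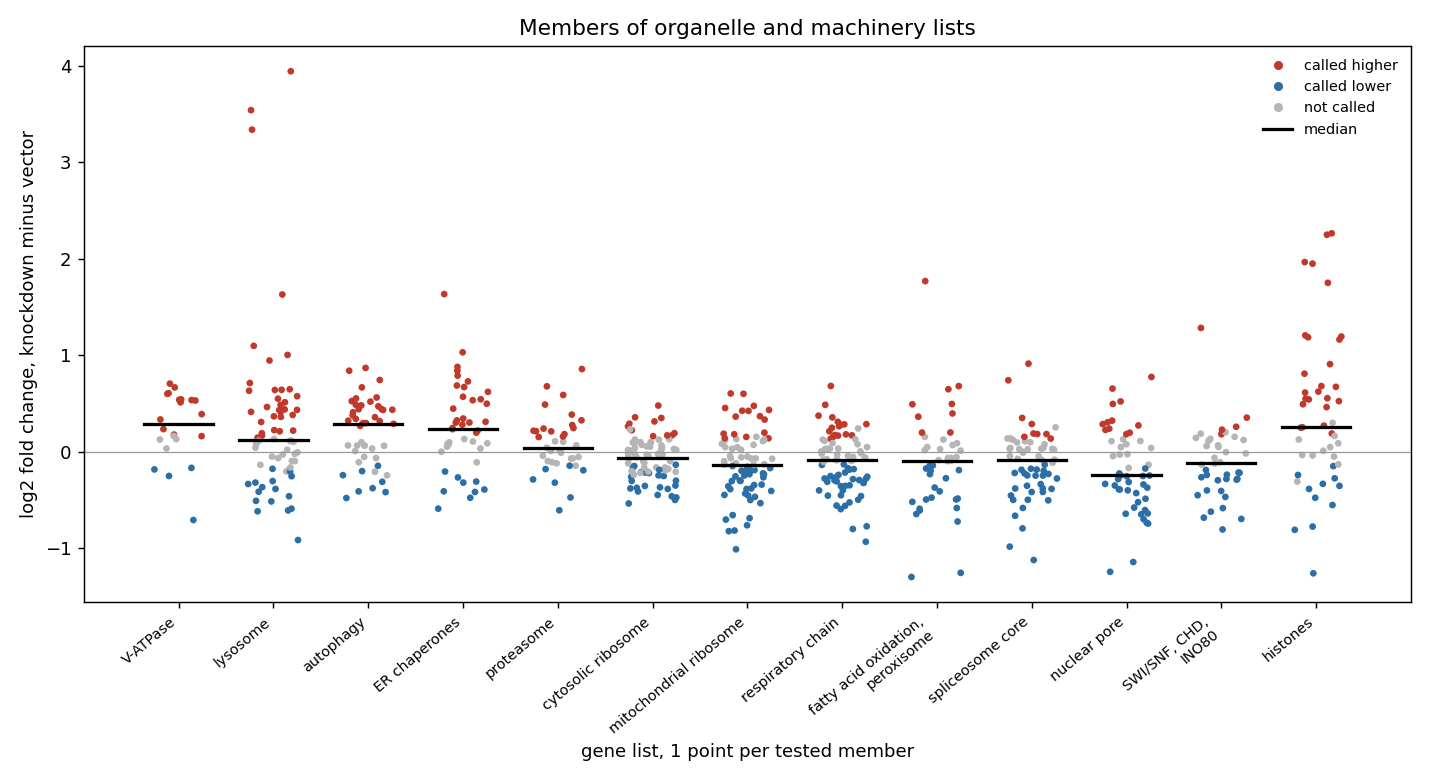
Each point is the log2 fold change (knockdown minus vector) of 1 tested member of a list, coloured by its call, and the black line is the list's median. The medians of the V-ATPase, autophagy and endoplasmic reticulum lists lie at 0.28, 0.29 and 0.23, and those of the mitochondrial ribosome, spliceosome and nuclear pore lists at -0.14, -0.08 and -0.24.

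Among lists of RNA machinery, those of the core spliceosome and the nuclear pore leaned down by small amounts. Of 62 core spliceosome genes 9 rose and 29 fell (median -0.08), and of 52 nuclear pore proteins and transport receptors 12 rose and 29 fell (median -0.24). The pore subunit Nup85 stood at 0.51, 0.35 and 0.37 in the knockdown and 1.71, 1.65 and 1.61 in the vector arrays (-1.25 ± 0.06), and Nup210 fell by 1.14 ± 0.05. Lsm5, of the ring that holds U6 RNA and of the decay ring in the cytoplasm, stood at -0.14, -0.10 and -0.12 against 1.06, 0.95 and 0.99 (-1.12 ± 0.05), and the exosome subunit Exosc8 fell by 1.01 ± 0.05. Of 59 genes of RNA decay, the exosome and small RNAs, the processes nearest to the known work of Snd1, 18 rose and 22 fell (median 0.02). Ago2, the slicing Argonaute, rose by 0.61, its partner Tarbp2 by 0.82, and the microRNA processor Drosha fell by 0.81. Of 82 cytosolic ribosomal proteins 11 rose and 25 fell (median -0.06), a direction that turned in the Cy5 channel alone, and ribosome biogenesis genes gave 19 higher and 24 lower of 77, a larger direction that turned in 2 of 22 alternatives. The polymerase subunit Polr3g fell by 0.75 ± 0.05 and the nucleolar factor Tcof1 by 0.77 ± 0.04. Translation factors gave 21 higher and 11 lower of 53 with a median of -0.01, a larger direction that turned with median centring.

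In chromatin, histone genes and the enzymes that modify histones differed. Of 47 tested histone genes 25 rose, 9 of them by at least 2-fold, and 11 fell (median 0.25). The H2B gene H2bc4 stood at 2.59, 2.38 and 2.47 in the knockdown and 0.42, 0.06 and 0.16 in the vector arrays (2.26 ± 0.10), and the linker histone H1f2 rose by 2.25 ± 0.06. The variants H2az2 (-1.26 ± 0.06), H3f3b (-0.78 ± 0.05) and Macroh2a1 (-0.81 ± 0.06, or 0.01 by another probe) fell. Histone genes within a cluster are near copies and probes may share signal. How fully the labelling captures histone RNA was not tested, so these counts describe labelled RNA alone. Of 63 histone methyltransferases and demethylases 13 rose and 27 fell (median -0.08), with the Polycomb enzyme Ezh2 at -0.84 ± 0.05 (-1.21, -1.17 and -1.13 against -0.30, -0.37 and -0.31) and the demethylases Kdm7a (0.89 ± 0.05) and Kdm6b (0.72 ± 0.05) higher. Of 41 genes in the list of SWI/SNF, CHD and INO80 remodellers 6 rose and 19 fell (median -0.12), including Smarcc1 (-0.70 ± 0.05). Arid3a, which the list also held but which is a DNA-binding factor outside these complexes, rose by 1.28 ± 0.06. Of 19 DNA methylation genes 3 rose (5 with the replicate number as a block) and 8 fell, the maintenance enzyme Dnmt1 by 0.45 ± 0.05 on the log2 scale. The 326 tested Zfp zinc-finger genes gave 82 higher and 98 lower (median -0.02), near the shares over all named genes.

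In signalling, the sharpest lean was in immediate early factors, with 26 of 32 higher and 1 lower (median 0.71). Egr2 stood at 0.78, 0.92 and 0.79 in the knockdown and -2.27, -2.01 and -2.08 in the vector arrays (2.95 ± 0.07), and the antiproliferative Btg2 (2.39 ± 0.04) and Arc (1.92 ± 0.06) rose, whereas Myc fell by 0.69 ± 0.05 (-0.08 by another probe). Of 22 dual-specificity phosphatases, some of which switch MAP kinases off, 13 rose and 3 fell (median 0.23). Dusp2 stood at 0.84, 0.97 and 0.94 against -2.58, -2.73 and -2.43 (3.49 ± 0.08), and Dusp1 rose by 1.36 ± 0.08.

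Growth factor families were less one-sided. Of 64 TGF-beta and BMP genes 24 rose, 9 of them by at least 2-fold, and 15 fell. The BMP antagonists Nbl1 (2.99 ± 0.05) and Grem1 (2.28 ± 0.05), the secreted Fstl1 (2.81 ± 0.07) and the BMP target Id2 (2.31 ± 0.11) rose. Nbl1 stood at 0.85, 0.73 and 0.68 in the knockdown and -2.23, -2.27 and -2.23 in the vector arrays. Of 39 PDGF, VEGF, HGF and related genes 19 rose and 11 fell. Pdgfrb, a receptor of mesenchymal cells, stood at -0.82, -0.83 and -0.88 against -3.37, -3.22 and -3.26, while its ligand Pdgfb fell by 1.36 ± 0.05. Vegfa rose by 1.48 ± 0.05 (0.76 and 0.44 by other probes). The Wnt inhibitor Sfrp1 fell by 1.08 ± 0.04, and Wnt5a rose by 1.07 ± 0.05 with 1 of 3 vector arrays well above background, within a Wnt list of 15 higher and 12 lower of 53 whose larger direction turned in 5 of 22 alternatives. The axon guidance receptor Robo3 rose by 2.71 ± 0.05, and Rgs16, which shortens G-protein signals, by 2.36 ± 0.05.

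Complement and coagulation genes held large changes in both directions. The complement protease C1ra (-2.73 ± 0.09) stood at -3.44, -3.70 and -3.84 in the knockdown and -0.95, -0.87 and -0.98 in the vector arrays, and C3 (-2.01 ± 0.06, or -0.27 by another probe), C1s1 (-1.62 ± 0.05) and factor B (Cfb; -1.17 ± 0.06) fell with it. On the coagulation side, thrombomodulin (Thbd; 4.10 ± 0.10) stood at 1.76, 1.56 and 1.58 against -2.24, -2.55 and -2.60, the protein C receptor Procr rose by 2.00 ± 0.05 and the inhibitor Tfpi2 by 2.91 ± 0.10, with 1 of 3 vector arrays well above background. Over the whole list 13 of 45 rose and 10 fell. Among innate receptors and their adaptors 10 of 44 rose and 13 fell, a larger direction that turned in 2 of 22 alternatives. The necroptosis kinase Ripk3 stood at 0.96, 0.90 and 0.82 against -3.33, -3.59 and -3.51 (4.37 ± 0.07), while Zbp1, a nucleic acid sensor that acts through it, fell by 2.11 ± 0.08 and the double-stranded RNA receptor Tlr3 by 1.66 ± 0.09. Of 20 NF-kB subunits and inhibitors 5 rose and 10 fell, with Bcl3 at -0.83 ± 0.07. Interleukins and their receptors gave 18 higher and 17 lower of 71, a larger direction that turned in 6 of 22 alternatives. Chemokines and their receptors gave 16 higher and 11 lower of 53. Il6 rose by 1.48 ± 0.07 and Ccl4 by 2.44 ± 0.11, and Il18 fell by 1.49 ± 0.05 and Cxcl14 by 1.09 ± 0.10.

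Of 64 potassium channel genes 6 rose and 6 fell, and of 60 cytochromes P450 5 rose and 6 fell, against 25.9% and 25.5% of all named genes, and the larger direction of the P450 genes turned in 3 of 22 alternatives. Kcne4, a regulatory subunit, stood at 3.12, 3.46 and 3.45 in the knockdown and 0.07, 0.06 and 0.14 in the vector arrays (3.25 ± 0.09), with 1 of 3 vector arrays well above background. Cyp1a1 was well above background on the 3 vector arrays alone, through which it passed the filter on signal, and stood at -0.14, -0.19 and 0.09 against 1.00, 1.34 and 1.33. The 340 tested SLC transporters gave 92 higher and 62 lower, a larger direction that turned with median centring. The amino acid carrier Slc7a8 (2.34 ± 0.06) and the thiamine carrier Slc19a2 (2.06 ± 0.05) rose, and the glucose carrier Slc2a6 fell by 1.31 ± 0.04. Of 44 neuropeptide and peptide hormone genes 18 rose and 7 fell. Cck (cholecystokinin) stood at 4.68, 4.70 and 4.66 against 0.32, 0.41 and 0.61 (4.23 ± 0.07), Scg5, a chaperone of hormone processing, rose by 2.11 ± 0.08, and neurotensin (Nts) fell by 1.37 ± 0.07.

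Called genes were then placed in the order of a RefSeq table of a later assembly than the array's (17132 genes). Chromosome 19 stood out with 227 of 609 genes (37.3%) higher and 91 (14.9%) lower. Its median log2 fold change was 0.09, and the medians of the other chromosomes with over 100 genes lay between -0.04 and 0.05. Chromosome 18 had 20.9% higher and 34.5% lower. In windows of 50 neighbouring genes the median ran from -0.30 to 0.34, the highest on chromosome 19 from AI837181 to Cdc42bpg and the lowest on chromosome 11 from Kctd2 to Mettl23.

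**Figure D4:**
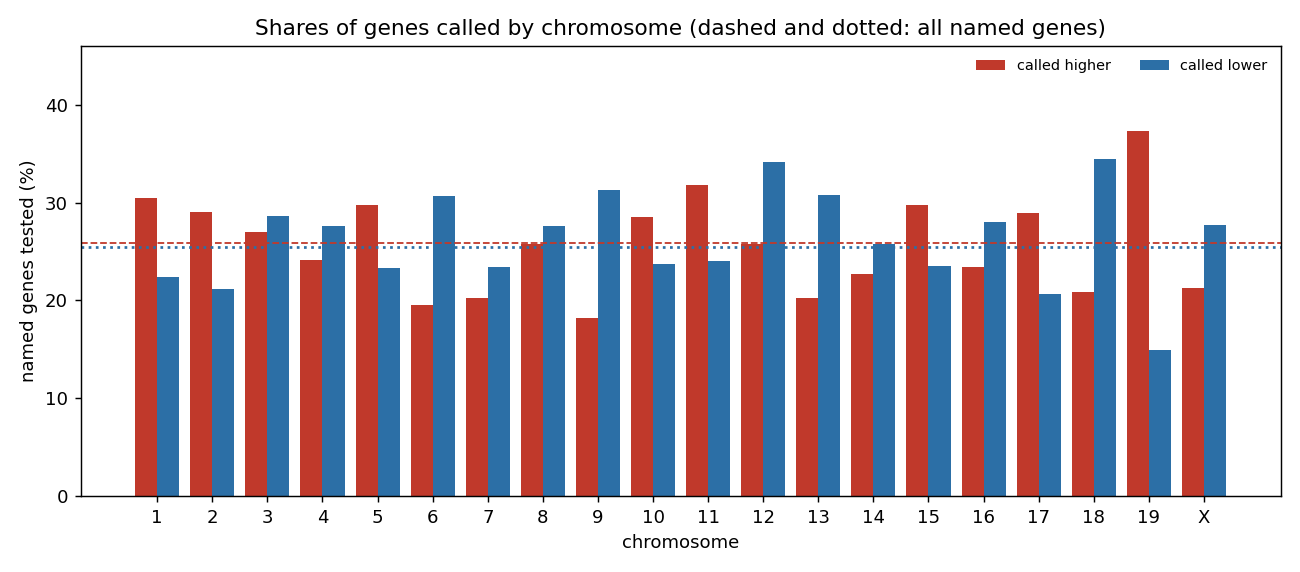
Bars give the percentage of named genes tested on each chromosome that were called higher or lower in the knockdown, and the dashed and dotted lines the shares over all named genes (25.9% and 25.5%). Chromosome 19 has the highest share called higher (37.3%), and its share called lower (14.9%) is under that of every other chromosome but Y, where none of 8 tested genes was called.

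Runs of at least 6 neighbouring tested genes, all called in 1 direction, numbered 36, with 18 in each direction. Among them were gene families and plain neighbourhoods. The longest was on chromosome 6, 11 genes lower from C1rl (-0.15, its call lost in 9 of 22 alternatives) to Atn1, with C1ra and C1s1 beside C1rb (-0.35) and C1s2 (-0.41) and the unrelated Lpcat3 (-0.36), Ptpn6 (-0.73, or 0.12 by another probe) and Phb2 (-0.20). On chromosome 11, 10 genes were lower from Jpt1 to Caskin2, including Nup85 and the adaptor Grb2 (-0.96), and on chromosome 14, 9 from Zfp395 to Clu (clusterin; -1.06). The Hoxb run of 8 had the largest median, 1.89. On chromosome 3, 7 genes of the cornified envelope, the outer layer of skin, were higher from Lce1d to Kprp (median 1.07). Lce1d stood at 3.30, 3.26 and 3.33 in the knockdown and 0.88, 0.60 and 0.60 in the vector arrays (2.60 ± 0.08), and Kprp at 3.64, 3.71 and 3.74 against 1.62, 1.40 and 1.41 (2.22 ± 0.07). The Lce1 genes are near copies and may share signal. Chromosome 19 held 4 of the runs, all higher, such as 8 genes from B4gat1 to Rab1b (median 0.62).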

How the data were processed

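RNA was labelled with the Agilent Quick Amp kit and hybridised to whole mouse genome arrays, per the labels' protocols. Feature Extraction was version 11.0.1.1 per the file headers and 9.5.3.1 per the submitters' processing notes. The deposited scanner files give spot intensity in both dyes, the software's own log10 ratio, and other flags such as well above background, per the file headers. The series value table holds log2 ratios, per the labels deposited by the authors and checked against the scanner ratios.

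Foreground and background intensities were corrected with normexp (offset 50) and normalised by loess within each array in limma 3.58.1 (R 4.3.3). Control spots and outlier flags were left out, and the brightest probe stood for a gene. Features well above background in Cy5 on at least 3 of the 6 arrays were tested with lmFit and eBayes, with Benjamini-Hochberg adjustment over all 25688. Of 41174 probes 27668 had a gene name. On simulated data with independent noise of equal spread, 84% of changes of 0.25 (log2) and 100% of changes of 0.5 were recovered. There were 11 false calls. Deviations shared within a slide were not simulated, so recovery in the arrays themselves is not known.

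Deviations from group means correlated at 0.597, 0.326 and 0.338 between same-numbered arrays, over the 0.1 taken as pairing, but at 0.247 and 0.39 between differently numbered arrays of the 2 groups on the second slide, so number and slide cannot be told apart. Named genes are Snd1, the 25 highest and 25 lowest called genes without overlap outside the p53, cell cycle and interferon lists, and up to 4 members per list and direction. Other genes are given as members of a run, a marker list, the Hox or ARMCX group or a promoter set. Members and lists were chosen with earlier results of these data known, and several symbol patterns were corrected for wrong matches after a first count. Promoter windows are RefSeq's (GRCm38.p6). Alternatives changed the background correction, centring, probe choice, threshold, blocks and arrays used. A few genes and lists are not reported here.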

Additional observations from a re-analysis of the deposited data

How the results depend on the processing

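In the Cy5 channel alone with quantile scaling, without the reference dye, 3646 features were higher and 4166 lower, and the cause was not tested. The counts of features called stayed within 1.5 times under the other alternatives. Leaving out each array in turn gave 5175 to 6052 higher and 4752 to 5359 lower. With the replicate number as a block, 6994 were higher and 5902 lower, and the replicate block moved no count of calls by over 1.5 times except those of genes higher among cadherins (3 to 6), DNA methylation genes (3 to 5) and the Ly6 family (4 to 7) and of EGF-family genes lower (2 to 4). The software's own log ratios gave 5235 and 5588, and an adjusted p under 0.01 gave 4524 and 4302. Of 11486 called features, 11475 had the same direction on both slides. Probes near background have compressed ratios, and 3 arrays a group limit the precision.

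Of the genes named, 3 marker genes that did not pass the test changed sign under some alternatives, by amounts near their error. Dcn gave -0.00 in the Cy5 channel alone, in the value table and in the software's own log ratios, -0.01 with array weights, -0.12 with median centring and -0.05 within the second slide, and -0.02 to 0.06 when an array was left out. Lum gave -0.11 in the Cy5 channel alone and -0.08 in the value table and the software's log ratios, and Ptprc gave -0.05 and -0.03. No other gene named changed sign in any of the 22 alternatives. This leaves aside Krt19, Cldn4, Arxes1 and Arxes2, whose values under the alternatives are not given here. Calls were lost for C1rl in 9 alternatives and C1s2 in 5, and for Esrp1 (-0.53), Stfa1 (-0.85) and Snrpn (-1.19) in the value table and the software's log ratios. Atg3, Atn1, Atp5h, Atp6v0a4, Ly6m, Lypd3 and Phb2 lost theirs in 1 or 2 alternatives, and Thy1 and Ptprc passed in 9 and 3.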
